A study of Mus musculus with 18 samples.

Results

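The nuclear pore complex is built from about 30 kinds of protein, and all 30 of the mouse genes listed for it here, picked by symbol, were found in a table of 22019 genes measured by polyadenylated RNA sequencing of NIH 3T3 cells, a mouse embryonic fibroblast line. The cells were a Tet-ON 3G line carrying an inducible construct delivered by retrovirus. SUN1L cells made SS-HA-SUN1L-KDEL, the lumenal domain of SUN1 with a signal sequence and an ER retrieval sequence, which displaces nesprins from the nuclear envelope and so disrupts the LINC complex, the link between nucleus and cytoskeleton. KDEL cells, the controls, made GFP in its place and had in addition been enriched by fluorescence sorting, so the construct and the history of each line cannot be told apart. All cells received 1 µg/ml doxycycline for 48 hr on fibronectin-coated polyacrylamide gels, either soft (1 kPa) or stiff (308 kPa). The groups were SUN1L on 1 kPa, KDEL on 1 kPa, SUN1L on 308 kPa and KDEL on 308 kPa, with 3 libraries each, and KDEL on 308 kPa with either 25 µM Y27 (n = 3) or 10 µM blebbistatin (n = 2), both for 48 hr and both labelled as myosin inhibition. Library 34 has labels that contradict each other on inhibitor and construct. It is in no group, and its values are given on their own. The study describes its replicates as biological, and the labels do not say more, so p-values measure the spread between these libraries.

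The pore is a ring-shaped channel through the nuclear envelope. A scaffold made of the Y complex and the inner ring lies against a curved membrane held by transmembrane nucleoporins, a mesh of disordered phenylalanine-glycine repeats fills the channel, and filaments on the cytoplasmic side and a basket on the nuclear side receive cargo. Importins, exportins and the small GTPase Ran carry that cargo. Dividing cells take the complex apart at mitosis and rebuild it, and they insert new pores during interphase to double the pore number before the next division. Values here are normalized signals on a linear scale, not divided by gene length, so they were compared between libraries and never between genes. The lowest value in the table was 1, and a gene was tested if it was above 1 in at least 3 of the 18 libraries (16021 genes).

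All 30 members were tested, and 29 had a mean signal of at least 10. The exception was Nup210, which encodes the transmembrane nucleoporin gp210. It was above the lowest value in 7 libraries and reached at most 8.65, in library 8, with 4.46 in library 7, 2.34 in library 3 and between 1 and 2.49 elsewhere. The table thus held next to no Nup210 signal in any group, and no fold is given for it. Total signal per library ran from 29583296 to 34880352. It was lowest in libraries 3, 7 and 8 (29583296, 29831788 and 30837199), and all others had at least 32164284. The size of the smallest step above 1 puts the depth at an estimated 12670000 (library 3) to 19460000 read pairs. All 10 fibroblast markers were above 100 in every library. None of the 6 epithelial, 4 leukocyte and 3 endothelial markers found was above 100 in all of them. Some were above 100 in part of the libraries: Krt14 (up to 872), Cdh1 (311), Cd68 (304) and Cdh5 (234). Sun1 checked the labels: its signal was 38452 to 82617 in the 6 SUN1L libraries and 2785 to 3799 in the others.

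Libraries 3, 7 and 8 stood apart from the rest in genes of dividing cells. Mki67, a marker of cycling cells, had a signal of 822 in library 3 (SUN1L, 1 kPa), 993 in library 7 (SUN1L, 308 kPa) and 1320 in library 8 (KDEL, 308 kPa), against 8365 to 15960 in the other 15. Top2a, the topoisomerase that decatenates chromosomes, was at 2820, 3583 and 4071 in the same libraries and at 16706 to 28855 in the others. Their 30 G2/M genes deviated on average by -2.98, -2.93 and -2.73 log2 units from the other libraries of their own groups, and their 24 S phase genes by -1.99, -2.02 and -1.85. These libraries belong to the run of serial numbers 3 to 12, with library 4 (KDEL, 1 kPa), 10 and 12 of the same run at the ordinary level, and what made them low is not stated. In bulk RNA, fewer dividing cells and less of such RNA per cell cannot be told apart. Because 1 such library sits in 3 of the 4 groups without inhibitor and none in KDEL on 1 kPa, the median of the members in each comparison below is given also without them.

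No nuclear pore gene passed the test for a change with SUN1L, stiffness or inhibitor in any of 7 comparisons. In SUN1L against KDEL cells on 1 kPa, limma called 0 of 30 members at an adjusted p under 0.05 and at least 2-fold, where 0.0874% of the 16021 tested genes were called. None passed an unadjusted p under 0.05, which 4.54% of all genes did. The signal of 26 members was nevertheless lower in SUN1L cells, with a median log2 difference of -0.14 over the 30 (all tested genes, -0.01), or -0.11 without libraries 3, 7 and 8. All 9 genes of the Y complex, the 3 of the central channel, the 4 of the cytoplasmic filaments and the 3 of the basket had a negative difference, as had 4 of the 5 inner ring genes. In 3 members the groups did not overlap (Ndc1 and Nup88 lower, Aaas higher), against 14.5% of all genes.

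The most negative difference on 1 kPa was that of Nup205 (ENSMUSG00000038759, chr6:35177430-35247590 on GRCm38), a large solenoid of the inner ring. SUN1L cells had signals of 3210, 6363 and 6919 in libraries 3, 15 and 27, and KDEL cells 8175, 6917 and 7439 in libraries 4, 16 and 28. Library 3 was far below the rest, library 15 was a little under the KDEL range and library 27 within it. The log2 difference was -0.52 ± 0.38 (SE, n = 3 against 3; limma, adjusted p = 0.93). Ndc1, the transmembrane nucleoporin that anchors the scaffold to the membrane, came next (ENSMUSG00000028614, chr4:107367784-107416346). It stood at 2612, 4606 and 4710 in SUN1L cells and at 5723, 5005 and 5875 in KDEL cells, groups that did not overlap, with a log2 difference of -0.52 ± 0.33 (limma, adjusted p = 0.93). The most positive difference was that of Aaas, which encodes ALADIN, a WD-repeat protein held at the pore by NDC1: SUN1L cells had 2343, 2420 and 2322 and KDEL cells 2089, 2214 and 2253. These groups did not overlap either, but lay close together, and the difference was 0.11 ± 0.16 on the log2 scale (limma, adjusted p = 0.93).

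Within the runs of serial numbers, each of which holds 1 library of each of these groups, the difference on 1 kPa was unequal. Between libraries 3 and 4 the 29 members with a mean signal of at least 10 had a median log2 difference of -0.30, and 1 of them was higher in the SUN1L library. Between libraries 15 and 16 the median was -0.06 with 11 higher, and between 27 and 28 it was -0.09 with 10 higher. The G2/M genes differed by a median of -3.20, -0.24 and -0.29 in the same pairs. The pair with the wide gap in dividing-cell genes was thus also the pair with the wide gap in pore genes, and the part of the first in the second was not tested. For 10 members on 1 kPa the 95% interval of the difference reached beyond 2-fold (Nup107, Nup133, Nup85, Nup37, Nup43, Nup93, Nup205, Nup35, Ndc1 and Nup210), while for the other 20 it did not.

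**Figure D1:**
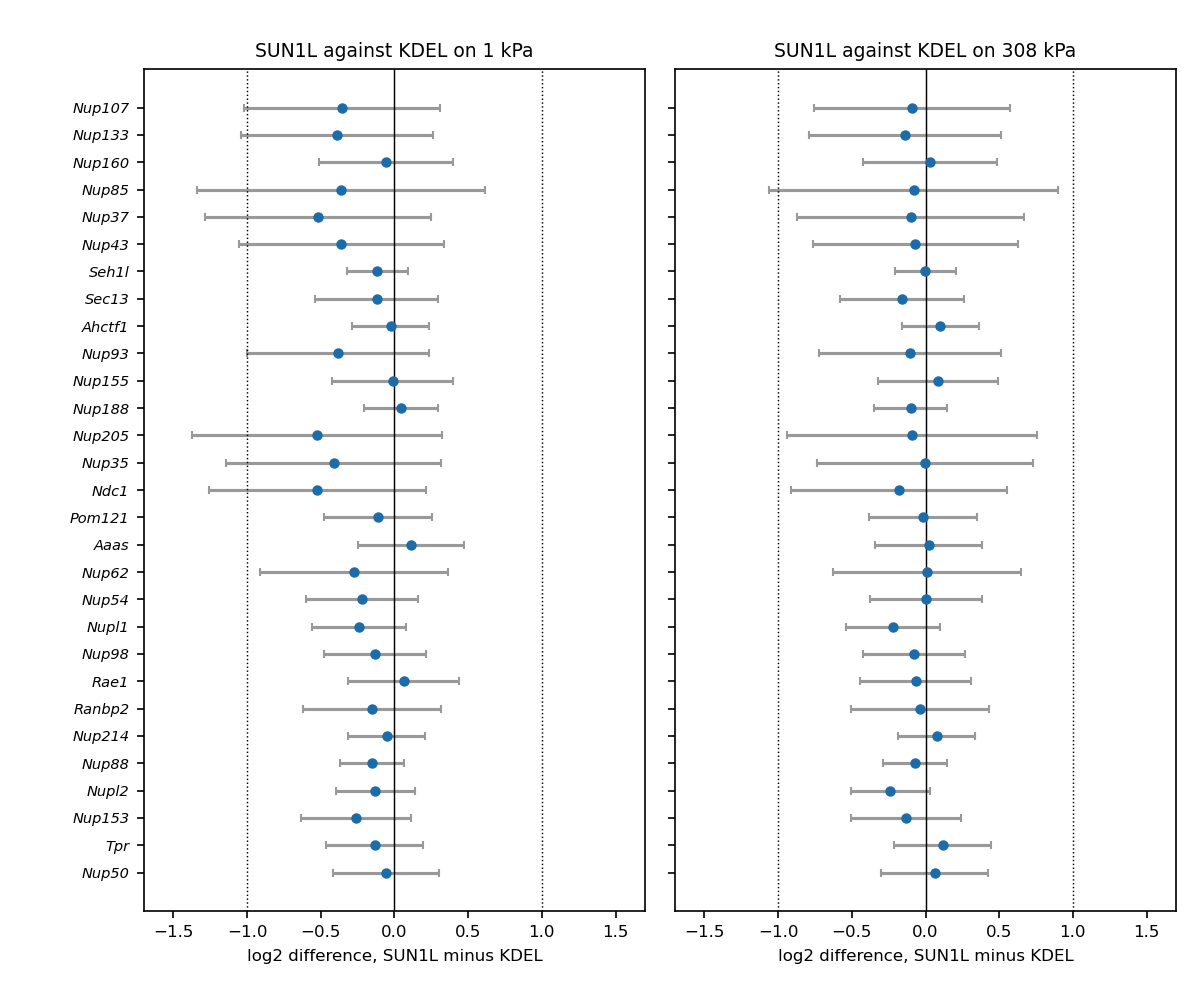
Log2 difference of the normalized signal, SUN1L minus KDEL, of the 29 nuclear pore genes with a mean signal of at least 10 (rows, in order of subcomplex) on soft gel in the left panel and stiff gel in the right; points are limma estimates, bars their 95% intervals and dotted lines 2-fold. Every interval includes 0, the points on 1 kPa lie mostly to the left of 0 with the lowest at -0.52, and those on 308 kPa lie between -0.24 and 0.12.

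On 308 kPa the difference between SUN1L and KDEL cells was smaller. Of the 30 members 21 were lower and 9 higher, with a median of -0.07 (all tested genes, -0.03), or -0.05 without libraries 3, 7 and 8. None was called (0.0624% of all genes were) and none had an unadjusted p under 0.05 (2.53%). Nupl2, a filament protein that binds the mRNA export factor GLE1, had the most negative difference and was the only member whose groups did not overlap (4.29% of all genes). Its signals were 432, 452 and 479 in SUN1L libraries 7, 19 and 31 and 561, 517 and 532 in KDEL libraries 8, 20 and 32, all 3 SUN1L values lying below the KDEL values. The log2 difference was -0.24 ± 0.12 (limma, unadjusted p = 0.074, adjusted p = 1.0). Tpr, the coiled-coil protein of the basket, had the most positive difference: 13841, 13683 and 11719 in SUN1L cells against 9801, 12460 and 14222 in KDEL cells. These ranges overlapped, and the difference of 0.12 ± 0.15 was below its error (limma, adjusted p = 1.0). The median of the members turned to 0.10 when library 32 was left out and to 0.08 when library 7 was, and it was -0.14 without library 8. In this comparison both arms hold a library low in G2/M genes, and for 28 members the interval lay within 2-fold.

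The test of whether the SUN1L effect differed between gels called none of the 30 members, nor any other gene (0% at a Bonferroni-corrected p under 0.05). No member had an unadjusted p under 0.05, which 0.905% of all genes had. The estimates were positive for 24 members, with a median of 0.12 (0.03 without libraries 3, 7 and 8) and a range over the 29 with a mean signal of at least 10 from -0.14 ± 0.16 for Nup188 to 0.43 ± 0.54 for Nup205 (SE, log2 scale). A positive value here means a SUN1L effect that was less negative on 308 kPa.

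Stiffness by itself gave no call either. In KDEL cells 23 members were lower on 308 kPa, with a median of -0.06 (all tested genes, -0.01). None was called (0% of all genes), none had an unadjusted p under 0.05 (1.37%), and none had groups that did not overlap (4.78%). Ndc1 showed the most negative difference, with 2850, 4983 and 6291 on 308 kPa against 5723, 5005 and 5875 on 1 kPa, so that the stiff gel held both its lowest and its highest value (-0.30 ± 0.33; limma, adjusted p = 1.0). Rae1, an mRNA export factor that docks on NUP98, showed the most positive one, with 2036, 1797 and 2529 on 308 kPa against 1889, 1607 and 1916 on 1 kPa. Its ranges overlapped, and the difference was 0.22 ± 0.17 (limma, adjusted p = 1.0). Without library 8, the only low one of these groups, the median over the members was 0.03 in place of -0.06.

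In SUN1L cells the count ran the other way: 23 members were higher on 308 kPa, with a median of 0.09 (all tested genes, -0.01). Again none was called (0%) or had an unadjusted p under 0.05 (1.93%). Groups did not overlap for Nupl2 (lower) and Nup88 (higher), 2 of 30 against 4.77% of all genes. Nup37, a small WD-repeat protein of the Y complex, had the most positive difference, with 528, 934 and 1215 on 308 kPa against 459, 760 and 995 on 1 kPa. Its ranges overlapped widely (0.26 ± 0.35; limma, adjusted p = 1.0). Nup188, the paralogue of Nup205 in the inner ring, had the most negative one, with 3017, 3448 and 2681 on 308 kPa against 3262, 3468 and 3274 on 1 kPa. The stiff gel held the lower values without separating from the soft gel (-0.14 ± 0.11; limma, adjusted p = 1.0). Leaving out library 3 turned the median over the members to -0.04, and without libraries 3 and 7 both it was 0.07. The 4 comparisons of construct and stiffness share their groups in pairs, so their directions are not independent of each other.

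Y27 and blebbistatin were each compared with the same 3 untreated KDEL libraries on 308 kPa, 1 of which is library 8. With Y27, 18 members were higher and the median was 0.05 (all tested genes, 0.01). None was called (0%), none had an unadjusted p under 0.05 although 5.80% of all genes had, and none was free of overlap (8.57%). Nup85 (ENSMUSG00000020739, chr11:115564434-115583985), which forms a short arm of the Y with SEH1 and NUP43, showed the most positive difference: 3775, 4245 and 4573 with Y27 against 1946, 3134 and 5525 without. The treated libraries fell inside the untreated range, which library 8 opened downward (0.37 ± 0.35; limma, adjusted p = 0.85). Nup98, a nucleoporin with phenylalanine-glycine repeats found on both faces of the pore, showed the most negative one, with 4419, 4032 and 3541 against 4567, 4938 and 4276. It overlapped through library 12 alone (-0.20 ± 0.11; limma, adjusted p = 0.85). Without library 8 the median over the members became -0.07.

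With blebbistatin, 24 members were higher, with a median of 0.12 (all tested genes, 0). None was called (0%) or had an unadjusted p under 0.05 (3.04%). In 6 members (Seh1l, Nup188, Nup160, Nupl1, Nup155 and Nup153) both treated libraries lay above all 3 untreated ones, against groups that did not overlap in 13.0% of all genes. The largest of these differences was that of Nup153, the basket protein that binds lamins and chromatin. It had 4480 and 5051 with blebbistatin against 3806, 4452 and 3820 without, higher by 0.24 ± 0.12 on the log2 scale (limma, unadjusted p = 0.070, adjusted p = 1.0). Over all members Nup205 had the most positive difference, with 7797 and 9396 against 3881, 7944 and 8922. Its treated values lay inside the untreated range (0.40 ± 0.34; limma, adjusted p = 1.0). Rae1 had the most negative one, with 1712 and 1849 against 2036, 1797 and 2529, again with overlap (-0.24 ± 0.15; limma, adjusted p = 1.0). Without library 8 the median over the members was 0.00 to 2 decimals (0.0024). With 3 libraries against 2, no exact test could reach a p below 0.2. The treated libraries, 10 and 22, include none of the run of serial numbers 27 to 36, which holds untreated library 32. The part of this imbalance in the differences was not tested.

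Library by library, the pore genes were not flat. In the heat map of all members, libraries 3, 7 and 8 are dark in 7 of the 14 scaffold rows (4 of 9 in the Y complex and 3 of 5 in the inner ring), in those of Ndc1 and Nup62, and in none of the filament rows.

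**Figure D2:**
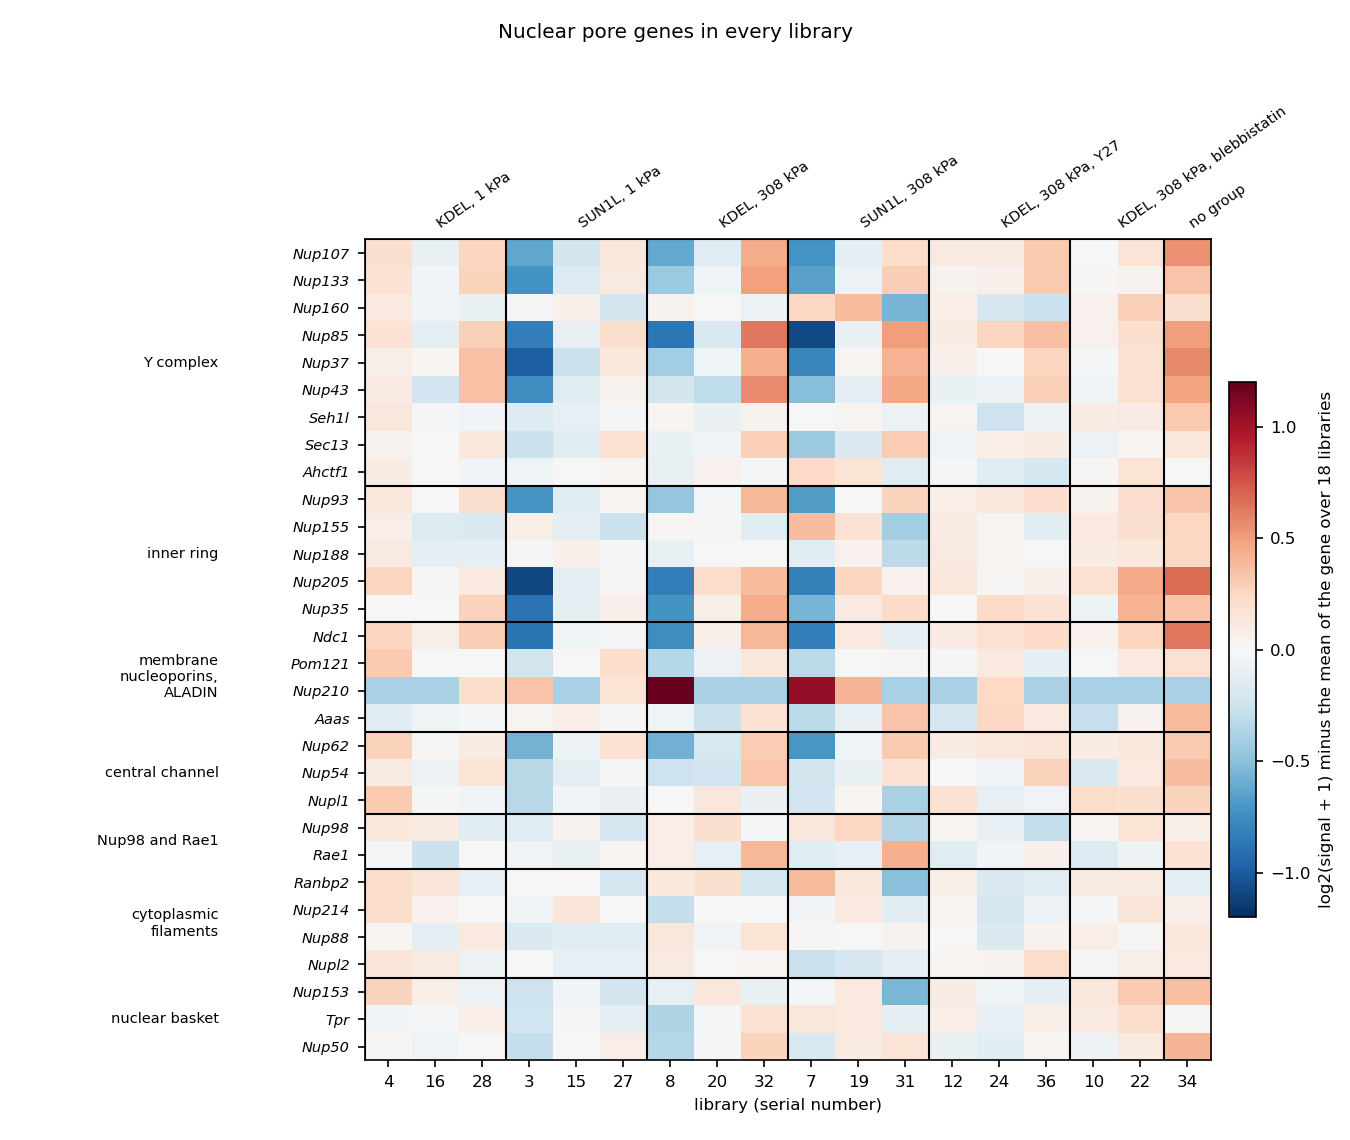
Level of each of the 30 nuclear pore genes (rows, by subcomplex) in each of the 18 libraries (columns, by group, numbered by library), as log2(signal + 1) minus the mean of that gene over the 18 libraries, blue for lower and red for higher. Libraries 3, 7 and 8 are blue for Nup107, Nup133, Nup85, Nup37, Nup93, Nup205, Nup35, Ndc1 and Nup62 and pale for most other genes, and Nup210 is near the lowest value of the table throughout.

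Against the other libraries of their own groups, the 29 members with a mean signal of at least 10 deviated on average by -0.33 in library 3, -0.31 in library 7 and -0.34 in library 8, where the 12512 genes with such a mean deviated by -0.09, -0.08 and -0.10. A list of 8 reference genes (Gapdh, Actb, Ywhaz, Snw1, Hprt, Tbp, Sdha and Pgk1) deviated by -0.38, -0.44 and -0.27, so a mean shift of this size was not particular to pore genes. The medians were -0.32, -0.17 and 0.004 for the reference genes and -0.26, -0.30 and -0.29 for the members. In libraries 7 and 8 the reference mean thus came in large part from some genes of that list. A set of 9 members was lower by more than 0.5 log2 units in each of these libraries: Nup85, Nup205, Ndc1, Nup35, Nup37, Nup133, Nup93, Nup107 and Nup62. They are 31% of the 29, and 12.6% of the 12512 genes and 3 of the 8 reference genes (37.5%) were as low in each of them. Nup43 was as low in libraries 3 and 7 (-0.69 in both) and at -0.35 in library 8. In contrast, Nup155, Ranbp2 and Nup160 were above the mean of the other libraries of their groups in each of the 3. They are 10.3% of the 29, while 32.4% of the 12512 genes were above that mean in each of them. These deviations describe libraries picked for their low G2/M level, and no test was made of them. The 30 G2/M genes lay further down than any of these members: the least affected of them deviated by -2.43, -2.01 and -2.20, and the lowest member value, that of Nup85 in library 7, was -1.29.

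**Figure D3:**
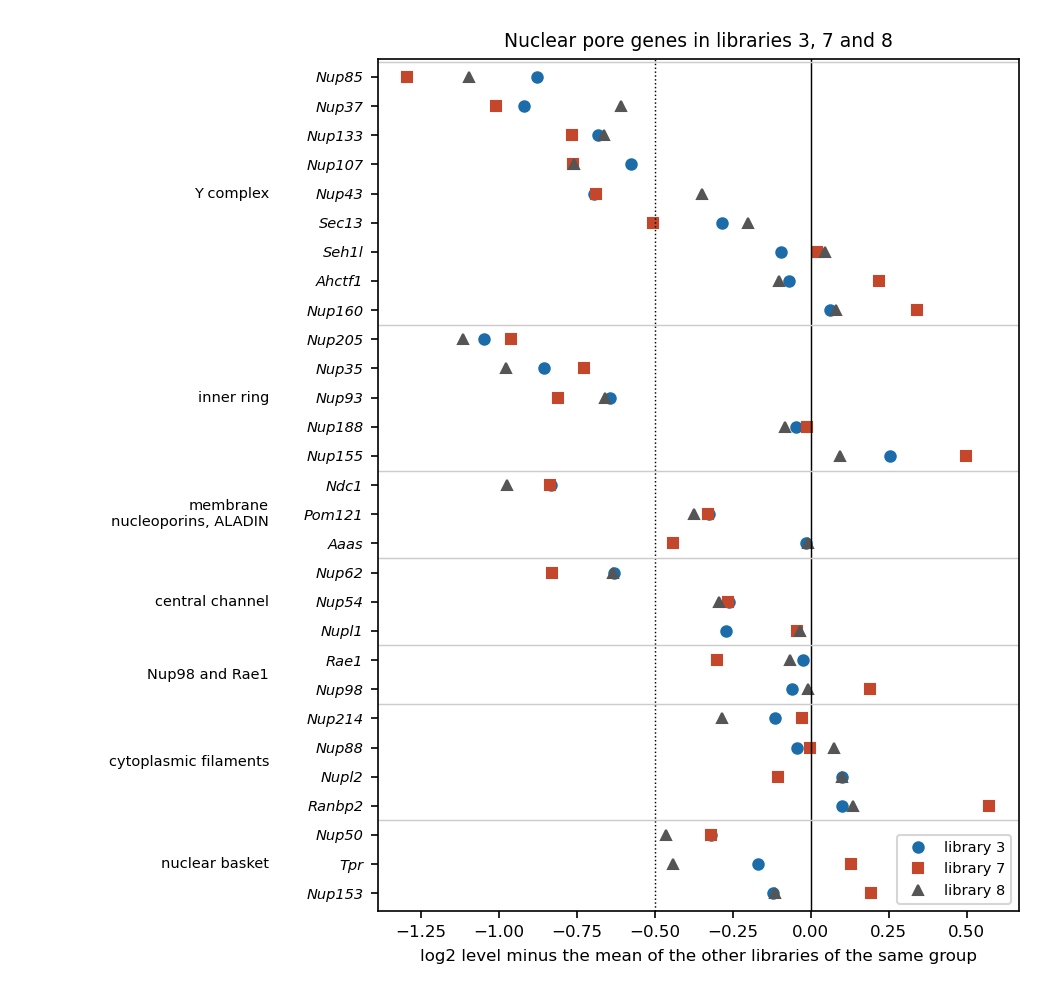
Deviation of the 29 expressed nuclear pore genes (rows, by subcomplex) in libraries 3, 7 and 8, as the log2 level minus the mean of the other libraries of the same group; the dotted line marks -0.5. Within the Y complex the values run from -1.29 for Nup85 to 0.34 for Nup160, within the inner ring from -1.12 for Nup205 to 0.50 for Nup155, and no filament or basket gene is below -0.5.

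The Y complex, taken as the 9 genes listed for it here, did not move as a unit. Nup98 was counted with Rae1 and not in this list. Its mean deviation was -0.46, -0.49 and -0.41 in libraries 3, 7 and 8, and this came from 5 of the 9 genes. Nup85 had signals of 1997, 1679 and 1946 there, against 3314 and 4071, 3370 and 5037, and 3134 and 5525 in the other libraries of the same groups. Each of the low values was thus well under its group, and Nup85 was at 4021, 3294 and 4323 in KDEL cells on 1 kPa, where no library was low. With blebbistatin it read 3673 and 4074. Nup107 and Nup133, which form the stem of the Y, deviated by -0.58, -0.76 and -0.76 and by -0.68, -0.77 and -0.66. Nup37 deviated by -0.92, -1.01 and -0.61.

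Nup160, which shares the other short arm of the Y with Nup37, was above the mean of the other libraries of its groups, by 0.06, 0.34 and 0.08. Ahctf1 (ELYS), which brings Y complexes to chromatin at the end of mitosis, deviated by -0.07, 0.22 and -0.10, and Seh1l by -0.10, 0.02 and 0.05. Sec13, at -0.29, -0.51 and -0.20, lay between. SEC13 and SEH1 also belong to complexes outside the pore, SEC13 to the COPII coat of secretory vesicles and both to a regulator of mTORC1. Reads of Nup133 and Nup43 may in part come from overlapping genes on the opposite strand (Gm20388 and Pcmt1 span the whole of each), since strand use in the counting is not stated. With the opposite strands unseparated, the part of those genes in the values cannot be told apart.

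The inner ring split in the same way, with means of -0.47, -0.40 and -0.55. Nup205 read 3210, 3915 and 3881 in libraries 3, 7 and 8. The other libraries of those groups read 6363 and 6919, 8211 and 7087, and 7944 and 8922, so its low values were about as far apart from their groups in SUN1L as in KDEL cells (-1.05, -0.96 and -1.12). With Y27, where no library was low in G2/M genes, Nup205 read 7526, 6922 and 7156. Nup35, which binds membrane, deviated by -0.86, -0.73 and -0.98 (its gene overlaps Dusp19 on the same strand, with a signal of up to 318), and Nup93, which links the ring to the channel, by -0.65, -0.81 and -0.66. Nup188, which occupies places in the ring like those of Nup205, deviated by only -0.05, -0.01 and -0.08. Its signals of 3262, 3017 and 3131 lay within or just under those of its groups.

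Nup155 (ENSMUSG00000022142, chr15:8109313-8159857), the scaffold protein that joins inner ring and membrane, had 5442 in library 3 against 4810 and 4326 in its group, 6711 in library 7 against 5827 and 3870, and 5239 in library 8 against 5143 and 4697. It was thus the highest library of its group each time. In the KDEL group on 1 kPa it read 5473, 4631 and 4586, with the highest value in library 4 of the same run, which was not low in G2/M genes. It read 5530, 5309 and 4705 with Y27 and 5626 and 5925 with blebbistatin.

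**Figure D4:**
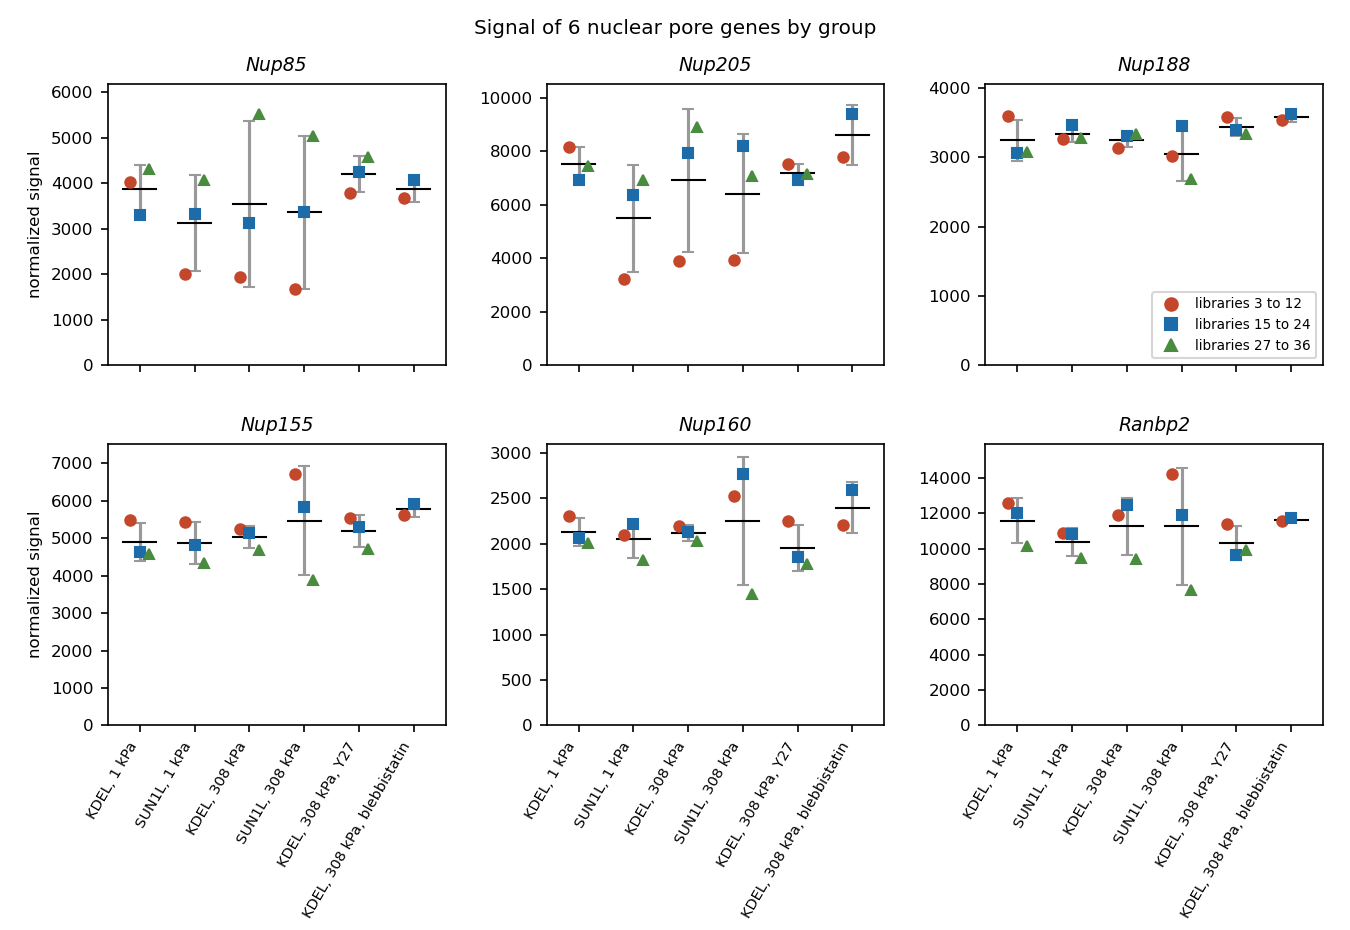
Normalized signal (linear, from 0) of 6 nuclear pore genes in each of the 17 libraries with a group, by group; symbols give the run of serial numbers, black lines the mean and grey bars the SD. Nup85 and Nup205 have 1 library far below the others in SUN1L on both gels and in KDEL on 308 kPa (libraries 3, 7 and 8), while Nup188, Nup155, Nup160 and Ranbp2 do not have a low value there.

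Among the membrane nucleoporins Ndc1 deviated by -0.83, -0.84 and -0.97. Pom121, the transmembrane nucleoporin needed for new pores in interphase, deviated by -0.33, -0.33 and -0.38. Aaas was near 0 in libraries 3 and 8 (-0.02 and -0.01) and at -0.44 in library 7. In the central channel Nup62, the core protein of the permeability barrier, deviated by -0.63, -0.83 and -0.63, Nup54 by -0.26, -0.26 and -0.29, and Nupl1 (Nup58) by -0.27, -0.05 and -0.03. These are 3 partners of a single coiled-coil complex, and in each of the libraries Nup62 had the largest deviation of the 3. The Nup62 gene overlaps Atf5, which has a signal of up to 10455, on the opposite strand and Il4i1 on its own.

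Among Nup98, Rae1 and the genes of the filaments and the basket, none was below -0.5 in any of these libraries. Nup98 and Rae1 together deviated by -0.04, -0.06 and -0.04. The cytoplasmic filaments deviated by 0.01, 0.11 and 0.01, with Ranbp2 (RANBP2, a giant SUMO ligase that binds Ran) at 0.10, 0.57 and 0.13, Nupl2 at 0.10, -0.11 and 0.10, Nup88 at -0.04, -0.00 and 0.07 and Nup214 at -0.11, -0.03 and -0.29. The basket was uneven, at -0.20, -0.00 and -0.34, and in library 8 it lay as low as the central channel, whose means were -0.39, -0.38 and -0.32. Its Nup50, which helps importins release cargo, was lower in each (-0.32, -0.32 and -0.46), while Tpr and Nup153 were on either side of 0.

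All groups were then looked at in the same way. The library lowest in G2/M genes was also the lowest of its group for the mean of the 29 members in 5 of 6 groups, for the membrane set in 6, for the Y complex, the inner ring and the channel in 5, for Nup98 with Rae1 and for the basket in 4, and for the filaments in 1. Groups of 3 and of 2 libraries are both counted here. Of the 6 groups, 3 hold the low libraries themselves, which were picked for their G2/M level. The order of the counts thus rests in part on that choice and is a description. The means of the 8 reference genes and of the 34 transport genes were also lowest in libraries 3, 16, 7, 8 and 10. Those are the libraries lowest in G2/M genes in every group but Y27, where both lists were lowest in library 24. A count of 5 was thus not particular to pore genes. In the Y27 group only the membrane set was lowest in the library lowest in G2/M genes (library 12). Library 34, in no group, had signals of 5042 for Nup85, 10942 for Nup205, 7413 for Ndc1 and 6145 for Nup155, with Mki67 at 12632. Its Nup205 and Ndc1 values were the highest of the 18 libraries. So were its total signal (34880352) and its mean log2 levels of the reference genes (13.97) and the transport genes (12.50).

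**Figure D5:**
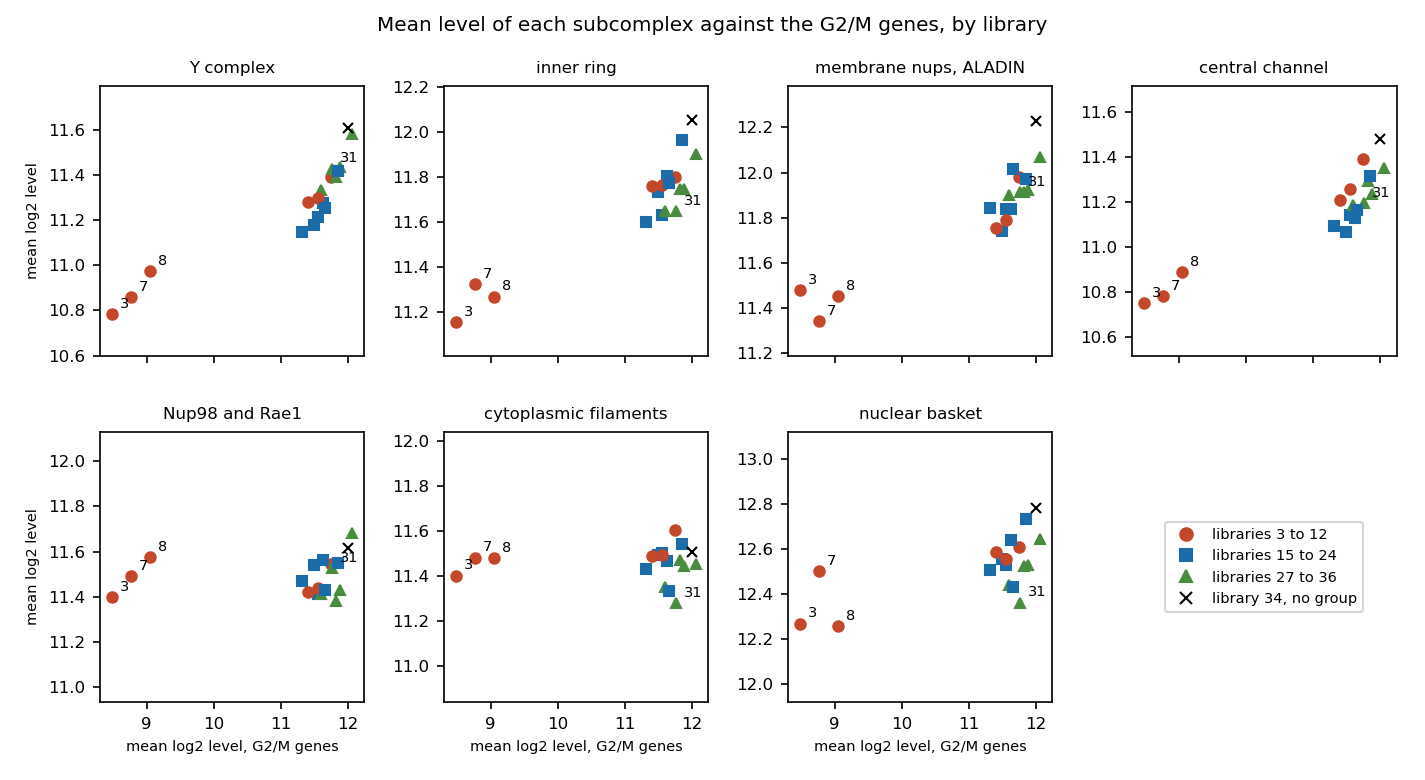
Mean log2 level of each subcomplex (vertical, members with a mean signal of at least 10) against the mean log2 level of 30 G2/M genes (horizontal) in the 18 libraries, with the same vertical span in every panel and libraries 3, 7, 8 and 31 numbered. The 3 libraries low in G2/M genes are lowest for the Y complex, inner ring, membrane set and central channel, and lie among the others for Nup98 with Rae1 and the cytoplasmic filaments.

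Another library pattern ran along transcript length, a property looked up after the values were seen. In library 31 (SUN1L, 308 kPa) the 3862 genes with a transcript over 4 kb had a median deviation of -0.27 and the 3293 under 2 kb one of 0.43, and the members did the same (-0.25 for 14 and 0.58 for 6). Ranbp2 was at 7676 there against 14207 and 11890 in its group, Nup160 at 1445 against 2530 and 2767, Nup155 at 3870 against 6711 and 5827, and Nup153 at 2781 against 4001 and 4412. Each of these long transcripts was lowest of the whole series in library 31. In library 7, of the same group, the 2 length classes stood at 0.15 and -0.26, and in library 8 at -0.01 and -0.04. The order seen in library 31 was not its own. Libraries 27, 28, 32 and 36 had the long class at -0.09, -0.13, -0.15 and -0.09. Their short class stood at 0.13, 0.16, 0.24 and 0.11. Libraries 12, 19 and 20 had the opposite order, with the long class at 0.14, 0.15 and 0.17. The deviations of library 7 for Ranbp2, Nup160 and Nup155 are thus taken against a group that holds library 31. Those of libraries 3 and 8 are taken against groups that hold libraries 27 and 32. The part of length in any of them was not tested. In library 8, where the 2 classes lay close together, Nup205 (6381 bases) deviated by -1.12 and Nup155 (6402 bases) by 0.09. That pair was picked once the values had been seen and does not bear on library 7.

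To show the DNA beside these values, the 250 bases before the start of transcription are given for the 2 lowest and the 2 highest members in libraries 3, 7 and 8 among those whose RefSeq entry (GRCm38.p6) lies outside the gene as the table gives it. They are written 5′ to 3′ on the strand of the gene, and capitals mark matches, on either strand, to CCGGAAG (ETS), TTTGAA or TTCGAA (the cell cycle homology region, CHR) and CCAAT (the CCAAT box). Nup37 (chr10:88146742-88146991, plus strand) and Nup133 (chr8:123949266-123949515, minus strand) are the low pair, and Ranbp2 (chr10:58446602-58446851, plus strand) and Nup155 (chr15:8109063-8109312, plus strand) the high pair.
Nup37: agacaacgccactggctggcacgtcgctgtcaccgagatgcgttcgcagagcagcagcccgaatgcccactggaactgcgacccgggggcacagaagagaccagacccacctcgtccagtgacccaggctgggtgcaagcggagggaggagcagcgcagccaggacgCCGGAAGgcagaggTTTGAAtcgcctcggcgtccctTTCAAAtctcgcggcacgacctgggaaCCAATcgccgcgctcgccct
Nup133: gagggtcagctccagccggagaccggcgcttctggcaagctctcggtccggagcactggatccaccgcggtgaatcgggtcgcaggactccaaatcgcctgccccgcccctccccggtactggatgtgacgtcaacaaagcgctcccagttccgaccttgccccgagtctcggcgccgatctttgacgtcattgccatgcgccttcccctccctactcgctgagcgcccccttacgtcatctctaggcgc
Ranbp2: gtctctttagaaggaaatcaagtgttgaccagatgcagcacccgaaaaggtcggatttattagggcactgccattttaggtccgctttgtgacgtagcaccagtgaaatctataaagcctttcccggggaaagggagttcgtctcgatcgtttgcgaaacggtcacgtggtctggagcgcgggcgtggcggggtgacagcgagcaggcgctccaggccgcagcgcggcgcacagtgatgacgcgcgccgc
Nup155: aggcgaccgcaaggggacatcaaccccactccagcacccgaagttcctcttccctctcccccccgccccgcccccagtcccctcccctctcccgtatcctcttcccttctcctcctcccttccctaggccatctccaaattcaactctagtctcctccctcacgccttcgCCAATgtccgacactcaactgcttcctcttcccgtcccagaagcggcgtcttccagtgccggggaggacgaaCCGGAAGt
The Nup37 stretch holds an ETS match that begins 83 bases before the start, CHR matches at 69 and 47 and a CCAAT box at 20. That of Nup155 holds a CCAAT box at 80 and an ETS match at 8, and those of Nup133 and Ranbp2 hold none of these words.

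Entries were found for 26 of the 30 members, without Nup85, Nup43, Nup35 and Seh1l. Over the 7 members with an entry that were below -0.5 in each of the 3 libraries, a CHR word was present in 2 (Ndc1 and Nup37) and a CCAAT box in 3 (Nup37, Nup62 and Nup93). Over the other 19 these were present in 4 and 7, and over all 32851 promoters of this length in 17.1% and 33.8%. The ETS word was in 2 of 7 and 4 of 19 (6.91% of all promoters), and the NRF1 core word GCATGCGC in 2 of 7 and 1 of 19 (2.26%). The E2F words TTTCCCGC, TTTCGCGC, TTTGCCGC and TTTGGCGC were in 0 of 7 and in 1 of 19, Nup210 (1.86%). A match is a description of the letters and not a binding site.

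The soluble transport machinery, a list of 34 genes, held no called gene in either SUN1L comparison. In SUN1L cells on 1 kPa it had 26 genes lower and 8 higher (median -0.17), on 308 kPa 23 lower and 11 higher (median -0.04). Rangap1, which activates the GTPase of Ran, Ranbp1, Kpnb1 (importin beta), Kpna2 (importin alpha), Cse1l, which returns importin alpha to the cytoplasm, and Nxt1, an mRNA export partner, were below -0.5 in each of the 3 libraries (6 of 34, 17.6%, against 12.6% of the 12512 genes). A further 9 of the 34 (26.5%) were above 0 in each of them, against 32.4% of the 12512 genes. Kpna2 was at 4542, 5694 and 6570 there and between 13030 and 22450 in the other 15 libraries. It also had the most negative difference on 1 kPa (-0.77 ± 0.59; limma, adjusted p = 0.93), and Ipo13, an importin that also exports, had the most negative one on 308 kPa (-0.21 ± 0.24; limma, adjusted p = 1.0).

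The most positive difference on both gels was that of Ddx19b, an RNA helicase that NUP214 holds at the cytoplasmic filaments. On 1 kPa its signals were 443, 406 and 326 in SUN1L cells and 214, 219 and 264 in KDEL cells, and on 308 kPa 446, 408 and 364 against 309, 228 and 235. SUN1L values were above KDEL values on each gel, with log2 differences of 0.74 ± 0.19 and 0.67 ± 0.19 (limma, unadjusted p = 0.0025 and 0.0051, adjusted p = 0.64 and 1.0), so neither passed the correction. SUN1L was higher in each of the 3 runs of serial numbers on both gels. Ddx19b is a near-identical neighbour of Ddx19a, and how reads were split between them is not stated.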

How the data were processed

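Polyadenylated RNA of 18 NIH 3T3 libraries was sequenced as read pairs. The authors checked reads with FastQC, mapped them with TopHat2 2.0 (genome mm9 per the methods), used SAMtools and AvadisNGS, removed reads of low quality and normalized by trimmed means of M-values. The deposited values are normalized signal per gene, linear, with a lowest value of 1. Gene positions in the table match GRCm38, not mm9, so no coordinates of an mm9 genome were used. Whole reads could not be recovered (42.6 to 47.4% of values below 30 were whole multiples of a step, within 0.02), so no count model was used. Depth was estimated as total signal over that step.

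Log2(signal + 1) was fitted with limma 3.58.1 (R 4.3.3) with a mean-variance trend over all 16021 genes above 1 in at least 3 libraries, in 1 fit of 12 libraries (4 groups) and 1 of 8 (untreated, Y27 and blebbistatin). The pseudocount of 1 understates changes of low genes. A call required a Benjamini-Hochberg adjusted p under 0.05 and 2-fold, and for the interaction a Bonferroni-corrected p under 0.05. A deviation is a library's log2 level minus the mean of the other libraries of its group. Tests are two-sided, and 3 against 3 libraries cannot go below 0.1 in an exact test.

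Members were grouped into 7 subcomplexes and all were named. Each gene was placed in a single subcomplex, so a subcomplex here means the genes listed for it. Values by library, in the groups compared, were given for the member with the most positive and most negative difference in each comparison (mean signal of at least 10), in all groups for those with the largest and smallest summed deviation in libraries 3, 7 and 8, and for Sun1, Mki67 and Top2a. Transport genes were named by the most positive and most negative difference in each SUN1L comparison. Some further genes (Nup160, Nup188, Nup153, Ranbp2 and the low transport genes) and the use of transcript length were picked once the values had been seen. Members and lists were chosen with earlier results of these data known. Promoter sequences are RefSeq, GRCm38.p6. Drawing used Python 3.11.15, pandas 2.3.3 and matplotlib 3.10.9.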

Additional observations from a re-analysis of the deposited data

How the results depend on the processing

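No paired analysis was possible because the labels number no replicates, other than a block on the runs of serial numbers and the differences within them, and those runs are not stated to pair libraries. The count of members called was 0 in every comparison and under every alternative run (no filter, a mean signal of at least 10, a pseudocount of 8, quantile normalization, 1 fit of 17 libraries, no trend, libraries 3, 7 and 8 left out, a block on runs, adjusted p alone, a z-test of proportions), and 0 with each library left out. With the block on runs of serial numbers, 5 members had an unadjusted p under 0.05 on 1 kPa (Nup133, Nup37, Nup93, Nup35 and Ndc1, limma adjusted p 0.31 to 0.34), as had 14.1% of all genes. The z-test, which has no replicate term, gave 17 to 25 members an unadjusted p under 0.05. The share of all genes passing it was not computed, so this count is no result about the members. The median difference over the members changed sign for Y27 with quantile normalization (-0.0091) and without libraries 3, 7 and 8 (-0.065), and for stiffness in KDEL cells without them (0.027), and kept its sign under the other alternatives that leave out no single library.

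With 1 library left out, the median log2 difference over the members ran from -0.19 to -0.11 for SUN1L on 1 kPa, -0.14 to 0.10 on 308 kPa (0.08 without library 7), 0.06 (without library 8) to 0.16 for the interaction, -0.14 (without library 32) to 0.03 for stiffness in KDEL cells, -0.04 to 0.15 in SUN1L cells (without library 27), -0.07 to 0.11 for Y27 (without library 32) and 0.0024 to 0.21 for blebbistatin (without library 32). Of 63 alternative values for subcomplex deviations, 52 moved by less than the spread and 6 took the other sign. With quantile normalization, Nup98 with Rae1 stood at 0.057, 0.023 and 0.061 in libraries 3, 7 and 8, the filaments at 0.14, 0.22 and 0.14, and the basket at -0.066 in library 3 and 0.10 in library 7. With the median in place of the mean, the inner ring stood at -0.73 in library 7, the filaments at -0.015 in library 7 and 0.087 in library 8, and the basket at 0.13 in library 7. The cause was not tested.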
